A study of Mus musculus with 16 samples.

Results

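The genes described here are 9 that circulating monocytes and the macrophages that arise from them are known to express: Fn1, Thbs1, Vcan, F13a1, Lyz2, Lyz1, Chil3, Ly6c2 and Plac8. They were taken by name, as genes of infiltrating monocytes, and all 9 were among the 13982 genes of the table. They were followed across 16 RNA sequencing libraries of cells stained for CD45 and CD11b, surface proteins of leukocytes and myeloid cells, sorted from the cortex of C57BL/6 mice and labelled as microglia. The 4 groups have 4 libraries each. The MCAO+AS-exos and MCAO+Ctrl-exos mice had occlusion of the middle cerebral artery (MCAO), a model of ischemic stroke, and received 150 µg of plasma exosomes by the tail vein at intervals of 3 days, the first on the day of surgery. The MCAO mice had the occlusion without exosomes, and the Sham mice had neither. The donors of the plasma were Apoe knockout mice fed either normal chow or, for 12 weeks, a western diet meant to induce atherosclerosis; the labels do not say which donor diet stands behind AS-exos and which behind Ctrl-exos. After occlusion the cells came from the infarcted cortex, whereas the time since surgery and the number of mice behind a library are not given in the sources used here. If libraries shared mice, p-values measure only the spread between these libraries.

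As background, monocytes leave the bone marrow and enter the ischemic brain through the chemokine receptor CCR2, and there turn into macrophages. Resident microglia carry CD45 and CD11b too, so that a gate on both stains can hold microglia, monocytes, macrophages and neutrophils. Fn1 encodes fibronectin, Thbs1 thrombospondin and Vcan the proteoglycan versican, which are adhesion and matrix proteins that monocytes secrete or carry. F13a1 encodes the catalytic chain of coagulation factor XIII, a transglutaminase that cross-links fibrin. Lyz2 and Lyz1 encode lysozymes, which cut bacterial cell walls, Chil3 a secreted chitinase-like lectin, and Ly6c2 the surface antigen that marks inflammatory monocytes in mice. Plac8 encodes a small cysteine-rich protein found in monocytes, neutrophils and lymphocytes.

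Pairs of near-identical neighbouring genes decide how far the levels can be read. Lyz2 lies beside Lyz1 on chromosome 10, with 0 protein-coding genes between them, and their transcripts share 96.0% of 1262 aligned bases. Both have a coding sequence of 447 bases, with 22 differences. The first 300 bases, which hold 20 of the differences, are shown because the lysozymes hold most of the signal of the 9 genes. Their relative level also varied between libraries, though no comparison of it between groups passed after adjustment. The sequences were read from GENCODE M21 (GRCm38), 5′ to 3′, and capitals mark the bases at which they differ.

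Lyz2: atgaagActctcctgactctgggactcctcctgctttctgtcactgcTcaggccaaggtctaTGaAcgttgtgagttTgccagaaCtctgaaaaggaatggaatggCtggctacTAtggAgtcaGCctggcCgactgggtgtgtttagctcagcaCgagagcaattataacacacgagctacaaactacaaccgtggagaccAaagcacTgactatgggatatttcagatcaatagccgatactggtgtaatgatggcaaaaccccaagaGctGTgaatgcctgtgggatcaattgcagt
Lyz1: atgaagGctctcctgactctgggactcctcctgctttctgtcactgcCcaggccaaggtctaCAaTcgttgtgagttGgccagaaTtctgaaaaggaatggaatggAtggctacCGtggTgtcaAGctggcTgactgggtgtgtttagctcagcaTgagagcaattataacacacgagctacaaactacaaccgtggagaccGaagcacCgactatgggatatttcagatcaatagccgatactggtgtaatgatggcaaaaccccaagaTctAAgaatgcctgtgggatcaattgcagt

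Of all stretches of 50 bases in the Lyz2 transcript, 15.4% also stand in Lyz1, and of all stretches of 100 bases 1.97%. Ly6c2 and Ly6c1, on chromosome 15, share 97.6% of their aligned bases and 32.6% of stretches of 50 bases. Chil3 and Chil4, on chromosome 3, share 94.7% of theirs and 18.5% of such stretches. The sources used here do not give how the authors' counting divided reads between the copies, so the levels of single copies are uncertain by an unknown amount.

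The table of promoters from RefSeq (GRCm38.p6, 250 bases before to 50 after the start) matched 7 of the 9 genes, and those of Fn1 and Thbs1 were not analysed here. Those of Lyz2, Lyz1, Chil3 and Ly6c2 are shown because their windows hold the letters searched for; those of Plac8 and Vcan, which do not, and that of F13a1 are not shown. Capitals mark AGGAAGT or, on the other strand, ACTTCCT, a run of letters around the GGAA core of sites for ETS factors such as PU.1. It was searched on both strands, and it was chosen after these promoters had been read. Each sequence is on the minus strand and is printed 5′ to 3′ in the direction of transcription. Lyz2 is at chr10:117282223-117282522, Lyz1 at chr10:117292819-117293118, Chil3 at chr3:106167515-106167814 and Ly6c2 at chr15:75111922-75112221.

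Lyz2 promoter: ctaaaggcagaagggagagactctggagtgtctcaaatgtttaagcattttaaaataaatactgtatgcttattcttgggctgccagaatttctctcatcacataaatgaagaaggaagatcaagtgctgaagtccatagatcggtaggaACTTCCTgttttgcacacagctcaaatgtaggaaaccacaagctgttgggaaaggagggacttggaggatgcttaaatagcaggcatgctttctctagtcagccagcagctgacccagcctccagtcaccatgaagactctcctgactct
Lyz1 promoter: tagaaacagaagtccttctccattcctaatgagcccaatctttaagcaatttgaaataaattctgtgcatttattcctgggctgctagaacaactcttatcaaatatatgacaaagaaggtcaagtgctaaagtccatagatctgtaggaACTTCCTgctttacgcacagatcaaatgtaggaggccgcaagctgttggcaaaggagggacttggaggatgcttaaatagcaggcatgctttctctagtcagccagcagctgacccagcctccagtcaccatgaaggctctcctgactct
Chil3 promoter: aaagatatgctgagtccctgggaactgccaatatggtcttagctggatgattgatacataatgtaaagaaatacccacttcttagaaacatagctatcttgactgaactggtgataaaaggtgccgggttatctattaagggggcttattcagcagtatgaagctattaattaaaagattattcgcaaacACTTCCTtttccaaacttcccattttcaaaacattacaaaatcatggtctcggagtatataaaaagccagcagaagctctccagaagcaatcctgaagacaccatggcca
Ly6c2 promoter: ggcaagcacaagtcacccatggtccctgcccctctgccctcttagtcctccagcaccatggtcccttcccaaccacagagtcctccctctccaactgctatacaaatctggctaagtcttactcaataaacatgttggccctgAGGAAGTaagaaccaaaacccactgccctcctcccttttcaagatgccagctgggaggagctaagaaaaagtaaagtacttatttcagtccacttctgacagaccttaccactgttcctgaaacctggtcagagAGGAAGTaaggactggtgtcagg

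The letters stood in the promoters of 5 of the 7 genes, those of Lyz2, Lyz1, Chil3, Ly6c2 and the second of 2 starts of F13a1, and were not found in the windows of Plac8 and Vcan. They stood in 9.35% of the 32851 promoters of the table, and 10.7% of its 27025 genes had at least 1 such promoter. In Lyz2 and Lyz1 they stood at the same place, 100 bases before the start. The 2 lysozyme promoters had the same base at 201 of 300 positions, 67.0%, without gaps. A match of letters is a description and no evidence that a factor binds there.

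Values are read as FPKM (fragments relative to the length of the transcript and the size of the library), which allow genes to be compared per length. All fold changes are on the log2(FPKM + 1) scale, with standard errors from limma and Benjamini-Hochberg adjusted p-values over the 10846 genes that reached 1 FPKM in at least 4 libraries. A gene passed the test with an adjusted p below 0.05. The scale understates changes of genes near 0. Fn1, F13a1, Ly6c2 and Vcan stayed below 1 FPKM in every Sham library, Plac8 reached it in 2 and Chil3 in 3 of the 4. These 6 genes met the minimum only through the groups after occlusion, whereas Lyz2, Lyz1 and Thbs1 met it in Sham libraries alone. Library totals ran from 758283 to 983648 FPKM, and the sequencing depth is unknown. In RNA of sorted pools, fewer cells of a type and less RNA per cell cannot be told apart.

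MCAO+AS-exos replicates 1 to 3 and replicate 4 stood apart. Across tested genes, replicates 1 to 3 correlated with each other at 0.979 to 0.985, but with replicate 4 at 0.905 to 0.921, while replicate 4 correlated with the MCAO+Ctrl-exos and MCAO libraries at 0.915 to 0.937. Within the other groups libraries correlated at 0.909 to 0.937 in MCAO+Ctrl-exos, 0.898 to 0.922 in MCAO and 0.8678 to 0.9145 in Sham. Replicate 4 thus lay in the usual range, and replicates 1 to 3 were unusually alike. Replicates 1 to 3 also had low values for long transcripts. Among 5236 genes with a mean of at least 10 FPKM after occlusion and a known transcript length, the longest 20% (4152 to 40378 bases) lay at a median of -0.46, -0.59 and -0.52 log2 units from the mean of the 12 libraries in these 3 libraries. In MCAO+AS-exos replicate 4 that median was 0.17, in MCAO+Ctrl-exos libraries it was 0.34, 0.02, 0.01 and -0.06, and in MCAO libraries 0.27 to 0.32. Fn1 (8315 bases), Thbs1 (5848) and Vcan (12427) belong to that longest class. Lyz2, Lyz1, Ly6c2 and Plac8 belong to the shortest, of 371 to 1392 bases. Its medians were 0.15, 0.15, -0.01 and 0.07 in MCAO+AS-exos libraries, -0.12 to 0.31 in MCAO+Ctrl-exos libraries and -0.21 to -0.04 in MCAO libraries. The main differences that involve MCAO+AS-exos libraries are therefore given also without replicate 4 of that group, and with the trends in length and GC content removed from each library.

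**Figure D1:**
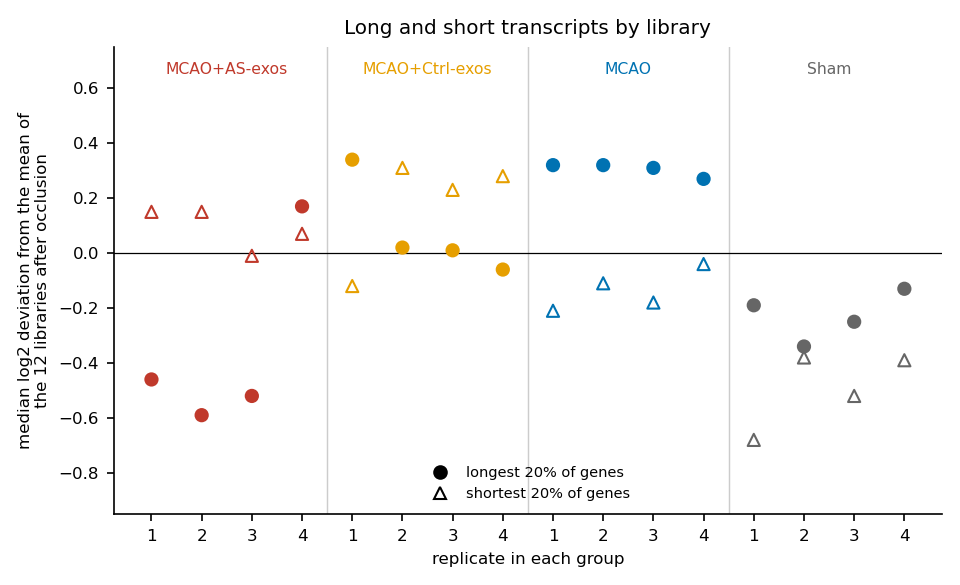
Median deviation (log2) of the longest and the shortest 20% of genes by transcript length in each library, from the mean of the 12 libraries after occlusion. Filled circles are the longest class and open triangles the shortest; in MCAO+AS-exos replicates 1 to 3 the longest class lies at -0.46 to -0.59, against 0.27 to 0.32 in MCAO libraries.

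Occlusion brought all 9 genes up. Each rose against Sham in the MCAO+AS-exos, the MCAO+Ctrl-exos and the MCAO group, where 20.7%, 22.1% and 24.5% of all tested genes rose. For the 6 genes that met the minimum only through the groups after occlusion a rise was close to set by that minimum, so the count and the medians are a description. The median log2 fold change of the 9 genes was 6.74 in MCAO+AS-exos, 6.68 in MCAO+Ctrl-exos and 6.84 in MCAO libraries, against medians of 0.03, 0.12 and 0.25 over all tested genes. No library of the 3 groups overlapped with Sham, with the exception of Plac8 in MCAO+AS-exos libraries; 19.4%, 19.4% and 21.8% of tested genes lay wholly above Sham in these groups. The 3 comparisons share the Sham libraries. Together the 9 genes made up 0.936 to 3.07% of the library total in MCAO+AS-exos libraries, 1.22 to 1.97% in MCAO+Ctrl-exos libraries, 0.964 to 1.68% in MCAO libraries and 0.0301 to 0.0819% in Sham libraries.

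**Figure D2:**
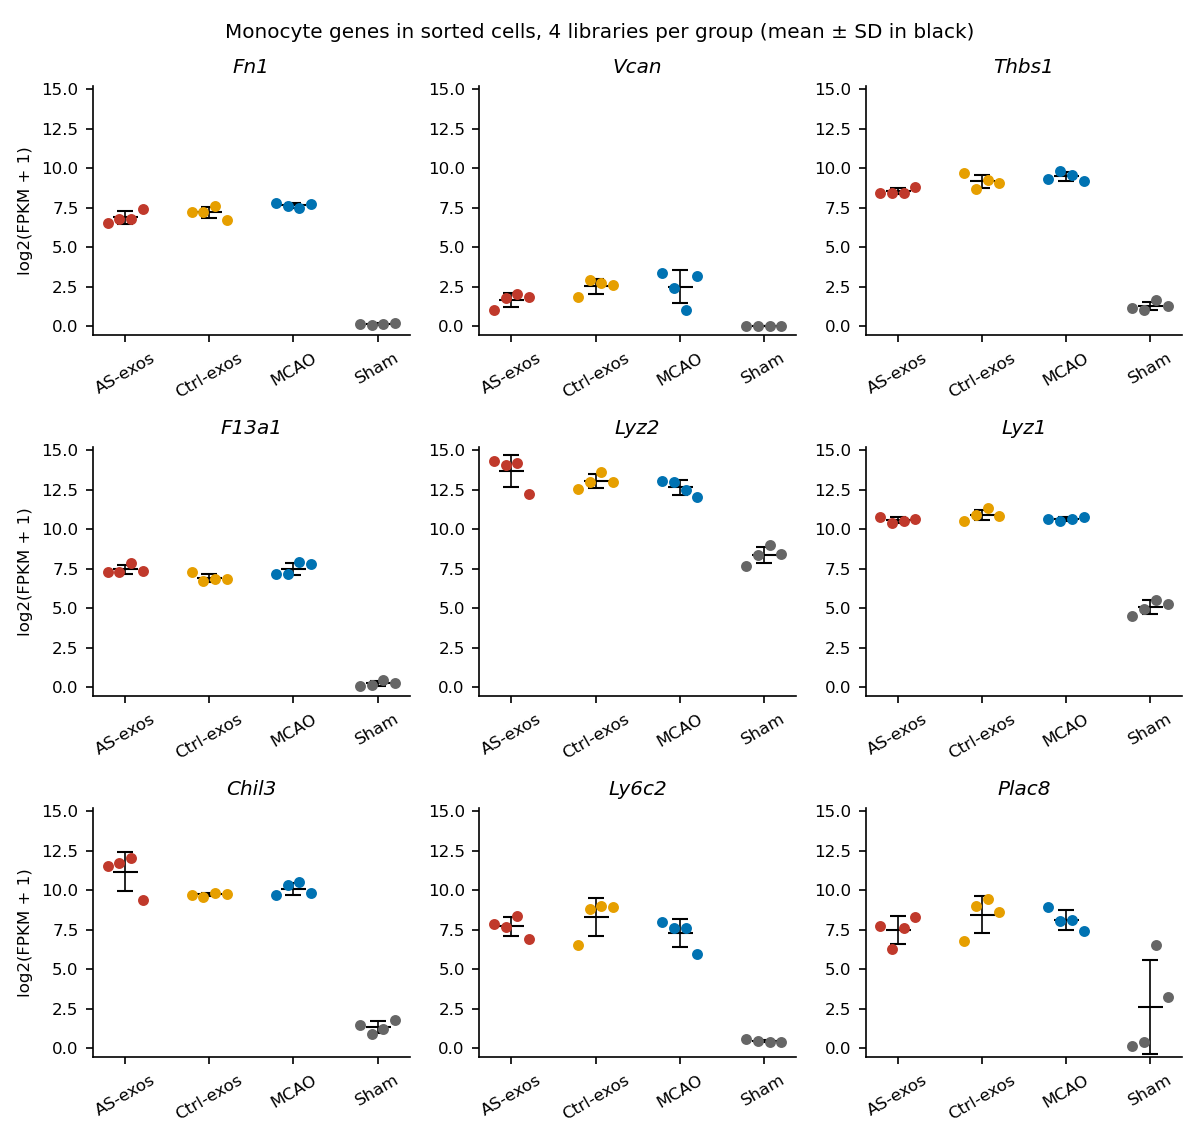
Level of each gene as log2(FPKM + 1) in the 16 libraries, by group, with the mean and SD of 4 libraries in black. Every gene is far above Sham in all 3 groups after occlusion apart from Plac8, whose Sham replicate 3 had 92.76 FPKM.

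Fibronectin RNA was far higher in cells sorted after occlusion than in those of Sham mice. As it met the minimum only through the groups after occlusion, a rise was close to set. Fn1 had 90.72, 107.51, 108.45 and 172.11 FPKM in MCAO+AS-exos libraries, 148.75, 148.49, 193.25 and 103.99 in MCAO+Ctrl-exos libraries, 216.74, 195.99, 174.48 and 213.48 in MCAO libraries, and 0.10, 0.06, 0.08 and 0.15 in Sham libraries. All 12 libraries after occlusion were far above Sham, and the MCAO+AS-exos libraries were all below the MCAO libraries. Its log2 fold changes against Sham were 6.74 in MCAO+AS-exos, 7.06 in MCAO+Ctrl-exos and 7.51 in MCAO libraries (SE 0.25 each; limma, adjusted p 3.35e-14, 2.56e-14 and 1.18e-14).

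Thrombospondin, the adhesion protein that binds CD36 and CD47, had among the smallest p-values of all genes. Thbs1 had 348.58, 349.78, 339.20 and 453.06 FPKM in MCAO+AS-exos libraries, 826.17, 406.41, 607.58 and 534.56 in MCAO+Ctrl-exos libraries, 637.70, 906.40, 753.88 and 593.25 in MCAO libraries, and 1.16, 1.06, 2.14 and 1.37 in Sham libraries. MCAO+AS-exos libraries 1 to 3 lay close together, and the MCAO libraries were all higher than every MCAO+AS-exos library. Its log2 fold changes against Sham were 7.27, 7.91 and 8.22 in the MCAO+AS-exos, MCAO+Ctrl-exos and MCAO groups (SE 0.24 each), and in the MCAO group its p-value stood at rank 5 among the 10846 genes (limma, adjusted p 1.42e-15).

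Versican stayed low per length. Vcan had 1.03, 2.41, 3.00 and 2.65 FPKM in MCAO+AS-exos libraries, 2.54, 6.69, 5.47 and 5.06 in MCAO+Ctrl-exos libraries, and 9.43, 4.22, 1.05 and 7.83 in MCAO libraries. It was listed at 0, 0, 0 and 0.01 FPKM in Sham libraries, so the fold of untransformed levels is not given. On the log2(FPKM + 1) scale the differences from Sham were 1.66 ± 0.45 in MCAO+AS-exos, 2.51 ± 0.45 in MCAO+Ctrl-exos and 2.48 ± 0.45 in MCAO libraries (SE; limma, adjusted p 0.00669, 1.93e-04 and 2.20e-04). These were the smallest differences from Sham among the 9 genes in all 3 comparisons on this scale, which understates changes of genes near 0. As Vcan met the minimum only through the groups after occlusion, a rise was close to set.

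F13a1, the transglutaminase chain, did not pass the test between any of the groups after occlusion. It had 154.52, 152.56, 233.60 and 162.61 FPKM in MCAO+AS-exos libraries, 151.49, 103.09, 112.97 and 114.27 in MCAO+Ctrl-exos libraries, 140.36, 143.80, 236.92 and 215.88 in MCAO libraries, and 0.05, 0.09, 0.36 and 0.20 in Sham libraries. The MCAO+AS-exos libraries were all above the MCAO+Ctrl-exos libraries (the nearest values were 152.56 and 151.49 FPKM) and overlapped with the MCAO libraries. The log2 fold changes against Sham were 7.22, 6.68 and 7.27 in the MCAO+AS-exos, MCAO+Ctrl-exos and MCAO groups (SE 0.25 each).

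Lysozyme was the most abundant product of the 9 genes. Lyz2 had 20052.19, 17235.38, 18466.05 and 4693.07 FPKM in MCAO+AS-exos libraries, 5959.33, 8260.04, 12809.32 and 8093.88 in MCAO+Ctrl-exos libraries, 8605.77, 8103.84, 5677.90 and 4202.00 in MCAO libraries, and 206.00, 326.53, 498.43 and 340.37 in Sham libraries. MCAO+AS-exos replicates 1 to 3 were above all other libraries, and replicate 4 of that group lay within the MCAO range. From the highest gene downwards Lyz2 ranked 4 to 17 in MCAO+AS-exos, 5 to 11 in MCAO+Ctrl-exos, 6 to 20 in MCAO and 212 to 517 in Sham libraries. Its log2 fold changes against Sham were 5.33, 4.69 and 4.28 in the MCAO+AS-exos, MCAO+Ctrl-exos and MCAO groups (SE 0.38 each).

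Its neighbour did not follow it. Lyz1 had 1763.06, 1331.43, 1478.25 and 1574.78 FPKM in MCAO+AS-exos libraries, 1442.51, 1920.78, 2561.08 and 1826.22 in MCAO+Ctrl-exos libraries, 1568.26, 1447.93, 1609.89 and 1739.50 in MCAO libraries, and 22.04, 30.21, 44.83 and 37.16 in Sham libraries. The 3 groups after occlusion overlapped, and MCAO+AS-exos replicate 4 did not stand apart. Log2 fold changes against Sham were 5.51, 5.83 and 5.57 in the MCAO+AS-exos, MCAO+Ctrl-exos and MCAO groups (SE 0.22 each).

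The level of Lyz2 over that of Lyz1 was 11.4, 12.9, 12.5 and 2.98 in MCAO+AS-exos libraries, 4.13, 4.30, 5.0 and 4.43 in MCAO+Ctrl-exos libraries, 5.49, 5.60, 3.53 and 2.42 in MCAO libraries, and 9.35, 10.8, 11.1 and 9.16 in Sham libraries. All MCAO+Ctrl-exos and MCAO libraries were below all Sham libraries, while MCAO+AS-exos replicates 1 to 3 were above them. The difference of the log2 ratio from Sham was -1.18 in MCAO+Ctrl-exos libraries and -1.32 in MCAO libraries. Both had p = 0.0286 in an exact two-sided permutation test, the smallest p that 4 against 4 libraries allow, and 0.0858 after adjustment over the 6 comparisons. Between MCAO+AS-exos and MCAO libraries the difference of the log2 ratio was 1.10 (exact p = 0.114, adjusted 0.214), and between MCAO+AS-exos and MCAO+Ctrl-exos libraries 0.95 (exact p = 0.143, adjusted 0.214). Without MCAO+AS-exos replicate 4 these differences were 1.61 and 1.46, each at p = 0.0571, the smallest that an exact test of 3 against 4 libraries allows. The ratio was chosen after its values were seen, and the division of reads between the copies was not tested. Summed, the lysozymes had log2 fold changes of 5.38, 4.84 and 4.48 against Sham in the MCAO+AS-exos, MCAO+Ctrl-exos and MCAO groups.

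**Figure D3:**
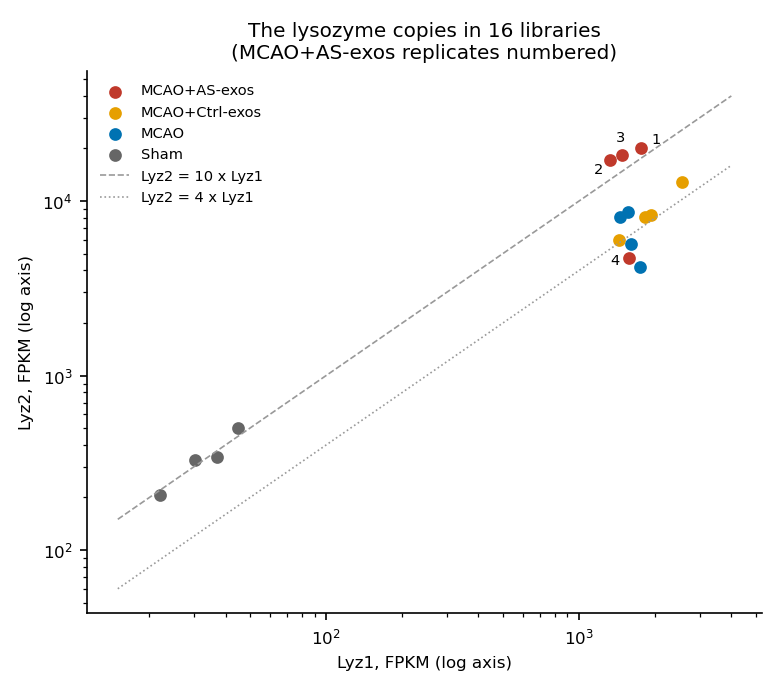
Lyz2 against Lyz1 in the 16 libraries, in FPKM on log axes, with MCAO+AS-exos replicates numbered and lines at ratios of 10 and 4. MCAO+AS-exos replicates 1 to 3 lie above the line of 10 beside a replicate 4 at 2.98, while MCAO+Ctrl-exos and MCAO libraries lie at 2.42 to 5.60.

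On the log2(FPKM + 1) scale the chitinase-like lectin had the largest fold changes of the 9 genes against Sham in all 3 comparisons. That order depends on the 1 added: in Sham libraries Fn1 averaged 0.0975 and F13a1 0.175 FPKM, against 1.56 for Chil3. Chil3 had 2948.24, 3393.17, 4235.42 and 651.57 FPKM in MCAO+AS-exos libraries, 842.06, 769.98, 919.69 and 849.60 in MCAO+Ctrl-exos libraries, 818.00, 1262.48, 1441.61 and 905.63 in MCAO libraries, and 1.72, 0.85, 1.3 and 2.38 in Sham libraries. As with Lyz2, MCAO+AS-exos replicates 1 to 3 were above all other libraries, and replicate 4 was below every MCAO and MCAO+Ctrl-exos library. The log2 fold changes against Sham were 9.84, 8.40 and 8.75 in the MCAO+AS-exos, MCAO+Ctrl-exos and MCAO groups (SE 0.41 each; limma, adjusted p 1.43e-13, 2.07e-12 and 1.07e-12). Chil3 met the minimum only through the groups after occlusion, so that a rise was close to set. Its copy Chil4 was listed at 0 in Sham libraries and reached 0.25 to 0.54 FPKM in MCAO+AS-exos, 0.39 to 0.67 in MCAO+Ctrl-exos and 0.81 to 1.31 in MCAO libraries.

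Ly6c2, the antigen of inflammatory monocytes, had a wide range in MCAO+Ctrl-exos libraries. It had 234.73, 205.59, 324.11 and 121.10 FPKM in MCAO+AS-exos libraries, 89.02, 445.96, 498.03 and 480.75 in MCAO+Ctrl-exos libraries, 247.76, 189.55, 195.44 and 61.12 in MCAO libraries, and 0.46, 0.34, 0.31 and 0.32 in Sham libraries. MCAO+Ctrl-exos replicate 1 lay far below the other 3 libraries of its group, which were the highest of all. The log2 fold changes against Sham were 7.27, 7.85 and 6.84 in the MCAO+AS-exos, MCAO+Ctrl-exos and MCAO groups (SE 0.49 each; limma, adjusted p 3.79e-10, 1.11e-10 and 1.05e-09). Ly6c2 met the minimum only through the groups after occlusion, so that a rise was close to set. Its copy Ly6c1, which is also known from endothelial cells, had 1.96, 7.17, 19.66 and 49.52 FPKM in MCAO+AS-exos libraries, 0.35, 3.96, 2.01 and 1.13 in MCAO+Ctrl-exos libraries, 0.33, 3.05, 0.24 and 0.27 in MCAO libraries and 0 in all Sham libraries. The sum of 7 endothelial markers, Ly6c1 among them, was 3.83 to 67.45 FPKM in MCAO+AS-exos, 3.37 to 7.58 in MCAO+Ctrl-exos and 1.60 to 13.98 in MCAO libraries, so Ly6c1 made up most of it where it was highest.

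Plac8 had the widest range of the 9 genes in Sham libraries on the log2 scale. It had 213.47, 75.20, 194.57 and 314.61 FPKM in MCAO+AS-exos libraries, 106.71, 515.74, 683.34 and 394.47 in MCAO+Ctrl-exos libraries, 477.33, 264.71, 273.00 and 168.45 in MCAO libraries, and 0.11, 0.33, 92.76 and 8.57 in Sham libraries. Sham replicate 3 was above 1 of the 4 MCAO+AS-exos libraries. That Sham library also had 11.04 FPKM of the monocyte gene Ifitm6, against 0, 0.24 and 0 in the other 3, and a sum of 24 other monocyte markers of 1632 FPKM, against 377, 333 and 172. The log2 fold changes against Sham were 4.88, 5.86 and 5.52 in the MCAO+AS-exos, MCAO+Ctrl-exos and MCAO groups (SE 0.96 each; limma, adjusted p 4.70e-04, 6.80e-05 and 1.35e-04). Without Sham replicate 3 they were 6.20, 7.18 and 6.84 (limma, adjusted p 6.58e-07, 8.63e-08 and 1.74e-07). Leaving out the highest Sham library raises the difference by itself, so these values are a description. As Plac8 met the minimum only through the groups after occlusion, a rise was close to set.

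**Figure D4:**
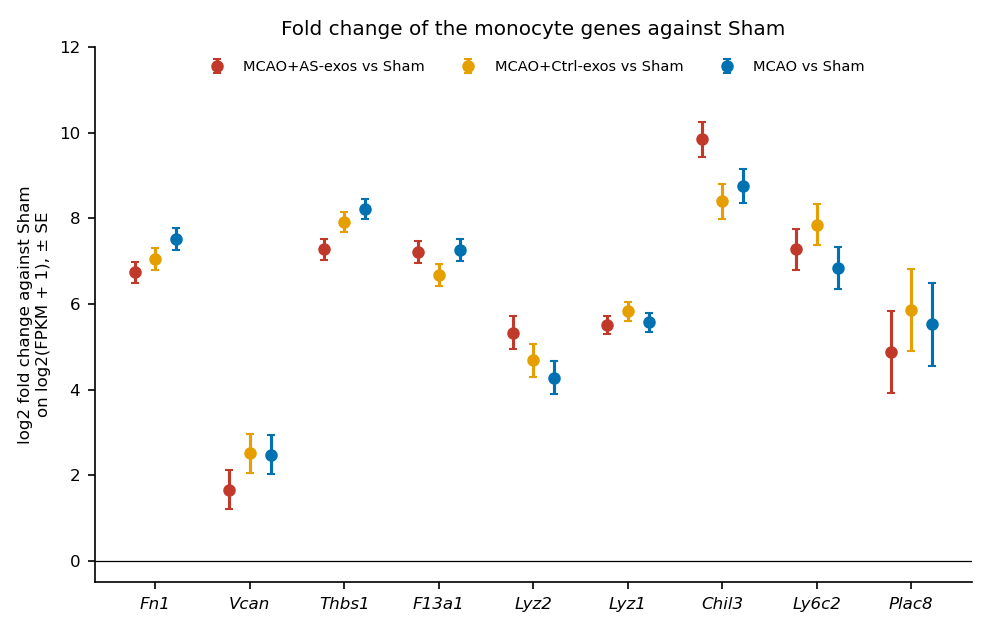
Log2 fold change of each gene against Sham on the log2(FPKM + 1) scale, with its SE, in the 3 groups after occlusion. Chil3 has the largest values (9.84, 8.40 and 8.75) and Vcan the smallest (1.66, 2.51 and 2.48).

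Other genes of monocytes rose with these 9. Of 24 further monocyte markers, 23 were tested, and 21 rose in MCAO+AS-exos, 22 in MCAO+Ctrl-exos and 21 in MCAO libraries against Sham, with 0 lower. Of all tested genes, 20.7%, 22.1% and 24.5% rose in these groups. Markers near 0 in Sham libraries, such as Clec4d (mean 0.24 FPKM), met the minimum only through the groups after occlusion, so the counts are a description. The median log2 fold changes of the 23 markers were 5.50, 5.50 and 5.53. Ccr2, the receptor that guides monocytes into tissue, averaged 182.7 FPKM in MCAO+AS-exos, 214.1 in MCAO+Ctrl-exos and 197.7 in MCAO libraries, against 3.49 in Sham libraries (log2 fold change in MCAO 5.63 ± 0.39 SE; limma, adjusted p 7.47e-10). In the MCAO group the calcium-binding protein gene S100a6 rose by 9.44 ± 0.26 log2 units, the lectin receptor gene Clec4d by 7.64 ± 0.22 and the hyaluronan receptor gene Cd44 by 6.93 ± 0.30.

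Of 33 partners and relatives of the 9 genes (receptors, cross-linking enzymes and family members), 24 were in the table and 19 were tested. In MCAO+AS-exos libraries 11 rose and 4 fell against Sham, in MCAO+Ctrl-exos 8 rose and 2 fell, and in MCAO libraries 8 rose and 3 fell. The share of all tested genes that rose was 20.7%, 22.1% and 24.5%, and 2077, 1802 and 1600 of the 10846 tested genes fell. Cd36, a scavenger receptor for thrombospondin, averaged 23.6 FPKM in MCAO libraries and 0.03 in Sham libraries (log2 fold change 4.41 ± 0.41). Itga5, the alpha chain of the fibronectin receptor, averaged 14.5 FPKM in MCAO libraries and 1.31 in Sham libraries (2.91 ± 0.45). Its beta chain Itgb1 averaged 39.2 FPKM in MCAO and 34.99 in Sham libraries and did not pass the test (0.23 ± 0.27), and neither did Cd47, the other receptor of thrombospondin, at 117.1 FPKM in MCAO and 120.0 in Sham libraries (-0.07 ± 0.21). Tgm2, a tissue transglutaminase, averaged 160.1 FPKM in MCAO libraries and 5.01 in Sham libraries (4.82 ± 0.49).

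Markers of other cells moved as well, and their part in the levels of the 9 genes was not tested. All 14 markers of resting microglia fell against Sham in each of the 3 groups, and their sum was 1345 to 1994 FPKM in MCAO+AS-exos, 1350 to 1429 in MCAO+Ctrl-exos, 1180 to 2079 in MCAO and 22770 to 25500 in Sham libraries. P2ry12, a purinergic receptor of microglia, averaged 61.2, 28.6 and 47.7 FPKM in MCAO+AS-exos, MCAO+Ctrl-exos and MCAO libraries, against 4214 in Sham libraries. The defining markers of the labelled cell type were thus high in Sham libraries and low after occlusion. Of 12 genes of monocyte-derived macrophages, 11 rose in each comparison with Sham, Fabp5 and Gpnmb among them. Of all tested genes 20.7% rose in MCAO+AS-exos, 22.1% in MCAO+Ctrl-exos and 24.5% in MCAO libraries. In the same order, 2077, 1802 and 1600 of the 10846 tested genes fell.

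Most tested markers listed for neutrophils, which also express Chil3, Lyz2 and Plac8, rose too. Against Sham 20.7% of tested genes rose in MCAO+AS-exos, 22.1% in MCAO+Ctrl-exos and 24.5% in MCAO libraries. Of 16 neutrophil markers 11 were in the table and 10 were tested, and 9 rose in MCAO+AS-exos, 7 in MCAO+Ctrl-exos and 8 in MCAO libraries against Sham. Their sum was 7117, 6448, 8016 and 3523 FPKM in MCAO+AS-exos libraries, 3693, 2773, 1861 and 2194 in MCAO+Ctrl-exos libraries, 1720, 2361, 5767 and 10060 in MCAO libraries, and 76.7 to 144 in Sham libraries. Ly6g, which defines neutrophils, was listed at 2.77, 0, 1.84 and 0 FPKM in MCAO+AS-exos libraries, at 0, 9.25, 0 and 0 in MCAO+Ctrl-exos libraries, and at 0 in all MCAO and Sham libraries. Whether the other markers on this list came from neutrophils was not tested. Of 13 markers of border macrophages 11 were tested, of which 11 rose in MCAO+AS-exos and 9 each in MCAO+Ctrl-exos and MCAO libraries. Their sum was 2898 to 5720 FPKM in MCAO+AS-exos, 3723 to 4366 in MCAO+Ctrl-exos, 1934 to 4409 in MCAO and 14.0 to 72.3 in Sham libraries.

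Fn1 and Thbs1 are also products of stromal cells and platelets, and F13a1 of platelets. Of 10 fibroblast and mural markers 3 were in the table and 2 were tested. The sum of these 3 was 2.61 to 4.24 FPKM in MCAO+AS-exos, 0.39 to 3.53 in MCAO+Ctrl-exos, 0.82 to 2.94 in MCAO and 0.07 to 1.48 in Sham libraries. Of 8 platelet markers with values 5 were tested, and against Sham 2 rose and 2 fell in MCAO+AS-exos, 1 rose and 2 fell in MCAO+Ctrl-exos, and 2 rose and 2 fell in MCAO libraries. Among all 10846 tested genes, 2242, 2392 and 2654 rose and 2077, 1802 and 1600 fell in these groups. In MCAO libraries Pf4, a chemokine that macrophages express too, averaged 2582 FPKM and rose (8.67 ± 0.68), whereas Gp9, a platelet surface glycoprotein, averaged 2.04 FPKM in MCAO libraries against 57.5 in Sham libraries and fell. Ppbp, a chemokine stored in platelets, averaged 4.84 FPKM in MCAO+AS-exos, 0.635 in MCAO+Ctrl-exos and 6.50 in MCAO libraries and was listed at 0 in all Sham libraries. The part of platelets in the levels of Fn1, Thbs1 and F13a1 was not tested. Itga2b, which defines platelets, was listed at 0 in all Sham libraries.

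Between the groups after occlusion the 9 genes did not move as 1 block. In the comparison of MCAO+AS-exos with MCAO libraries, 1 of the 9 genes passed the test, where 6.14% of tested genes passed (1.06% higher and 5.08% lower). Thbs1 averaged 372.7 ± 53.8 FPKM in MCAO+AS-exos libraries and 722.8 ± 140 in MCAO libraries (SD, n = 4 each), a log2 fold change of -0.94 ± 0.24 (SE; limma, adjusted p 0.0333). With the trends in length and GC content removed this was -0.56 and did not pass (adjusted p 0.135). It did not pass either when any MCAO library or any of MCAO+AS-exos replicates 1 to 3 was left out (adjusted p 0.0559 to 0.144), and its log2 fold change then stayed between -1.03 and -0.83. Fn1 lay wholly below the MCAO libraries too, as 10.1% of tested genes did, at 119.7 ± 35.9 FPKM in MCAO+AS-exos and 200.2 ± 19.4 in MCAO libraries (SD), but did not pass (-0.77 ± 0.25; adjusted p 0.0690); with the trends removed its value was -0.27.

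Lyz2 and Chil3 lay the other way. Lyz2 averaged 15110 ± 7041 FPKM in MCAO+AS-exos and 6647 ± 2072 in MCAO libraries (SD, n = 4 each), with a log2 fold change of 1.04 ± 0.38 (SE; limma, adjusted p 0.0997). Chil3 averaged 2807 ± 1533 FPKM in MCAO+AS-exos and 1107 ± 294.5 in MCAO libraries, with 1.09 ± 0.41 (limma, adjusted p 0.103). Neither passed the test. Without MCAO+AS-exos replicate 4, 4 of the 9 genes passed, where 18.8% of all tested genes did: Chil3 at 1.69 (adjusted p 2.68e-04) and Lyz2 at 1.54 (0.00213) were higher, and Fn1 at -0.96 (0.00996) and Thbs1 at -1.04 (0.00777) lower. That library was picked out after the values were seen, and the group then consisted of the unusually alike replicates 1 to 3. Whether these are independent is not known, so the p-values without replicate 4 are a description. With all libraries and the length and GC trends removed, 0 of the 9 genes passed in limma, where 2.98% of tested genes did, and Chil3 was at 0.60 (adjusted p 0.346) and Lyz2 at 0.54 (0.369). With the trends removed and replicate 4 left out, 12.5% of tested genes passed. Chil3 was then at 1.06 (adjusted p 0.00912), Lyz2 at 0.91 (0.0381), Lyz1 at -0.70 (0.0328), and Fn1 at -0.31 (0.424) and Thbs1 at -0.55 (0.116) no longer passed. The neutrophil markers summed to 6448 to 8016 FPKM in MCAO+AS-exos replicates 1 to 3 and 3523 in replicate 4, against 1720 to 10060 in MCAO libraries, and 0 of the 10 tested passed between these groups; their part in the levels of Chil3 and Lyz2 was not tested. The remaining genes did not pass with all 16 libraries. Their log2 fold changes were 0.44 ± 0.49 for Ly6c2, -0.05 ± 0.22 for Lyz1, -0.05 ± 0.25 for F13a1, -0.64 ± 0.96 for Plac8 and -0.82 ± 0.45 for Vcan.

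Set against exosomes of the other code, none of the 9 genes passed the test, where 0.286% of tested genes did in limma and 19.6% had an unadjusted p below 0.05. Chil3 had the smallest adjusted p among them, at 2807 ± 1533 FPKM in MCAO+AS-exos and 845.3 ± 61.2 in MCAO+Ctrl-exos libraries (log2 fold change 1.44 ± 0.41 SE, 95% interval 0.59 to 2.29; limma, adjusted p 0.0802). Thbs1 averaged 372.7 ± 53.8 FPKM in MCAO+AS-exos and 593.7 ± 176 in MCAO+Ctrl-exos libraries (-0.63 ± 0.24; adjusted p 0.154). F13a1 lay wholly above, as 5.19% of tested genes did, at 175.8 ± 38.8 FPKM in MCAO+AS-exos and 120.5 ± 21.3 in MCAO+Ctrl-exos libraries (0.53 ± 0.25; adjusted p 0.251). With all libraries and the trends removed, 0 of the 9 genes passed in limma, where 0.640% of tested genes did: Chil3 was at 1.01 (adjusted p 0.141), Lyz2 at 0.27 (0.746), Lyz1 at -0.68 (0.104), Thbs1 at -0.36 (0.414) and F13a1 at 0.56 (0.231). Without MCAO+AS-exos replicate 4, Chil3 (2.05, adjusted p 1.24e-04) and Lyz2 (1.13, 0.0187) passed, as did 12.0% of tested genes. With that library left out and the trends removed, 9.78% of tested genes passed, and Chil3 was at 1.47 (0.00124), Lyz2 at 0.64 (0.171) and Lyz1 at -0.82 (0.0167).

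MCAO+Ctrl-exos and MCAO libraries differed in none of the 9 genes by limma, where 0.0738% of tested genes passed and 10.9% had an unadjusted p below 0.05. The largest difference was that of Ly6c2, at 378.4 ± 194 FPKM in MCAO+Ctrl-exos and 173.5 ± 79.3 in MCAO libraries (log2 fold change 1.02 ± 0.49 SE, 95% interval 0.00 to 2.03; adjusted p 0.459). The other 8 genes had log2 fold changes of -0.59 to 0.40. The intervals differed in width: that of Lyz1 ran from -0.20 to 0.71, and that of Plac8, the widest, from -1.67 to 2.34. For Plac8 a difference of several-fold was thus not detectable at this spread. The spread of each gene was estimated over all 16 libraries, Sham included. For Plac8 the SD of log2(FPKM + 1) was 2.99 in Sham, 1.18 in MCAO+Ctrl-exos and 0.61 in MCAO libraries.

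**Figure D5:**
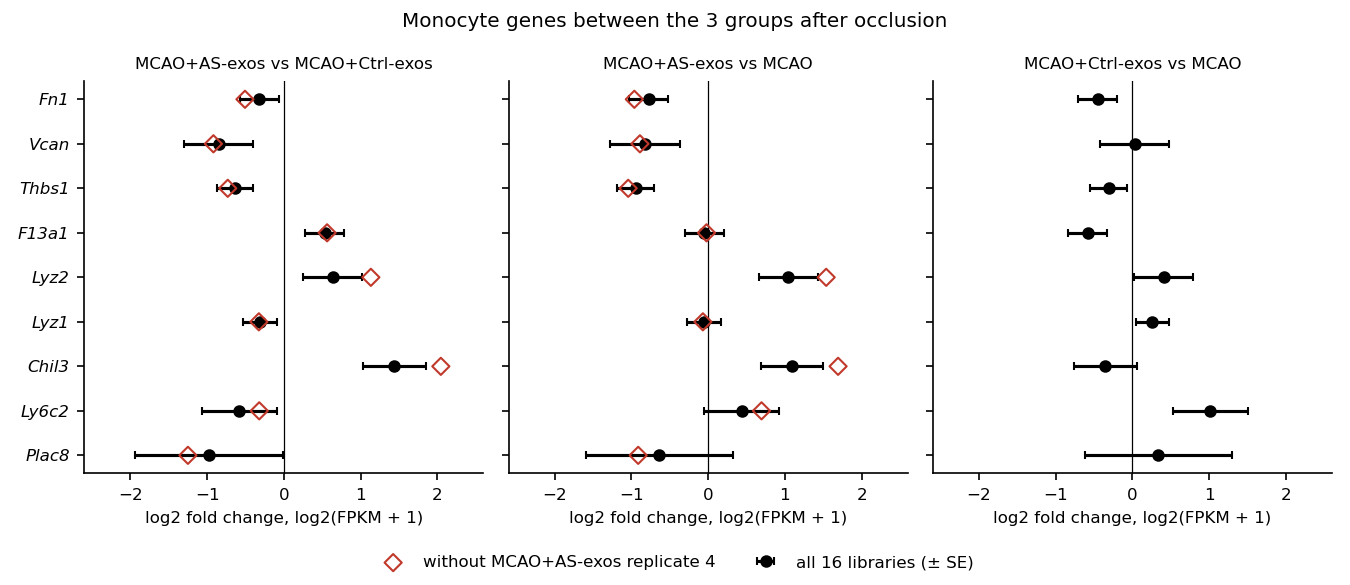
Log2 fold change of each gene between the 3 groups after occlusion, on the log2(FPKM + 1) scale, with its SE (black) and its value without MCAO+AS-exos replicate 4 (open diamonds). Against MCAO, Chil3 lies at 1.09 with all libraries and 1.69 without replicate 4, and Thbs1 at -0.94 and -1.04.

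The order of the groups by mean FPKM differed from gene to gene. Chil3 and Lyz2 were highest in MCAO+AS-exos libraries, Lyz1, Ly6c2 and Plac8 in MCAO+Ctrl-exos libraries, and Fn1, Thbs1, Vcan and F13a1 in MCAO libraries, with Sham lowest for all 9. No pair of neighbours in these orders passed the test apart from the step to Sham.

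Over the 12 libraries after occlusion the 9 genes formed no common pattern. Of 36 pairs, 18 had a positive and 18 a negative Pearson's r of log2(FPKM + 1), from -0.661 to 0.787 with a median of 0.0187. The libraries share groups and depth, so r is a description here and has no p. Lyz2 and Chil3 had r = 0.787 (Spearman's rho 0.559), but 0.0688 over the 9 libraries without MCAO+AS-exos replicates 1 to 3, and Fn1 and Thbs1 had r = 0.690 (rho 0.685), but 0.288 over those 9. Ly6c2 and Plac8 had 0.610 (rho 0.650) and 0.861 over the 9, and Lyz1 and Plac8 0.735 (rho 0.720) and 0.678. The copies Lyz1 and Lyz2 had r = 0.0392 (rho -0.021), but 0.593 over the 9 libraries without MCAO+AS-exos replicates 1 to 3. The mean log2 level of the 9 genes moved by 0.84 between these libraries. Among 5282 other genes with a mean of at least 10 FPKM, the 5 most like that mean were Cops2 (r = 0.895), which had 15.3 to 24.9 FPKM, Ly86 (0.801), a partner of a Toll-like receptor relative on myeloid cells, Rpe (0.794), Ifitm6 (0.781) and Prcp (0.780).

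A few related genes passed a test between the groups after occlusion. Between MCAO+AS-exos and MCAO libraries 6.14% of all tested genes passed, and between MCAO+AS-exos and MCAO+Ctrl-exos libraries 0.286% did. The related genes named here were picked because they passed, so they are a description. Of the other monocyte markers, the protease gene Napsa was higher (189.5 FPKM in MCAO+AS-exos, 88.0 in MCAO libraries; log2 fold change 1.10 ± 0.30 SE; limma, adjusted p 0.0387) and Cd44 lower (81.7 FPKM in MCAO+AS-exos, 166.0 in MCAO libraries; -1.07 ± 0.30; adjusted p 0.0430), and 21 of 23 did not pass. Of the partners and relatives, Ly6c1 was higher in MCAO+AS-exos than in MCAO libraries (2.88 ± 0.65; adjusted p 0.0261), and Chil1, a relative of Chil3, higher in MCAO+AS-exos libraries (9.51 FPKM) than in MCAO+Ctrl-exos libraries (0.24 FPKM; 2.77 ± 0.56; adjusted p 0.0429). With the trends in length and GC content removed, Napsa (0.66, adjusted p 0.152), Cd44 (-0.72, 0.172) and Ly6c1 (2.45, 0.0543) did not pass, while Chil1 did (2.45, 0.0497). Without MCAO+AS-exos replicate 4, which had the highest Ly6c1 value, all 4 passed in limma (adjusted p 0.00864, 0.00528, 0.0161 and 0.00158), with Ly6c1 at 2.22. With that library left out and the trends removed, only Chil1 of the 4 passed (2.82, adjusted p 0.00390). The shares of all tested genes that passed against MCAO and MCAO+Ctrl-exos libraries were 2.98% and 0.640% with the trends removed. They were 18.8% and 12.0% without that library, and 12.5% and 9.78% with both changes. The genes of the stained proteins were low in MCAO+AS-exos replicates 1 to 3. Ptprc, which encodes CD45, had 64.8, 46.8, 60.9 and 116.3 FPKM in MCAO+AS-exos libraries, 91.1 to 120.8 in MCAO+Ctrl-exos and 108.8 to 168.8 in MCAO libraries. In Sham libraries it had 82.9 to 173.4. Itgam, which encodes CD11b, had 52.0, 54.7, 62.7 and 146.2 FPKM in MCAO+AS-exos libraries, 78.5 to 136.2 in MCAO+Ctrl-exos and 121.0 to 187.8 in MCAO libraries. In Sham libraries it had 82.8 to 121.0. Replicates 1 to 3 are the libraries with low values for long transcripts, and values of Ptprc and Itgam with the trends removed are not given here. The part of Ptprc and Itgam in the other results was not tested.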

How the data were processed

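The authors deposited 1 table of 13982 genes by 16 libraries and 16 files of single libraries with identical values, at 2 decimals. Per the submitters' processing notes, HISAT2, Bowtie2 and RSEM 1.3.1 were named with the mouse build GRCm39.p6; the sources used here give neither their roles nor the annotation. Deposited values were read as FPKM because RSEM gives it and library totals differ, though a part of a TPM table could look alike. The deposited FPKM show no steps of single fragments, so depth is unknown and counting error could not be given.

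Groups were taken from the sample titles. Values were taken as log2(FPKM + 1), with a minimum of 1 FPKM in 4 or more libraries, which 10846 genes met and 3136 did not. One model of 4 group means over 16 libraries was fitted in R 4.3.3 with limma 3.58.1 (lmFit, eBayes with trend and robust). All limma tests were two-sided, and p-values were adjusted by Benjamini-Hochberg across all genes tested. Ratios were compared with exact permutation tests (scipy 1.17.1). The fit was tested on simulated data. Transcript lengths came from the longest protein-coding transcript in GENCODE M21 (GRCm38), matched by symbol for 10622 tested genes, and trends were removed with natural splines of length and GC content. Promoters came from RefSeq.

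The 9 genes and the lists were chosen with earlier results of these data known. Named were all 9 genes, at most 4 genes per list with the smallest p between MCAO and Sham, defining markers at 0, and the 5 genes most like the mean of the 9; copies, receptors, Ifitm6, Ptprc, Itgam and genes that passed between occlusion groups were added after their values were seen. Alternatives were quality weights, a pseudocount of 0.1, quantile normalization, equal totals, a replicate block, no trend, 5 FPKM as the minimum, no filter, only the 8 libraries compared, summed lysozymes and leaving out each library; 3 more, removing length and GC trends and leaving out libraries, were added after the data were seen.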

Additional observations from a re-analysis of the deposited data

Results flagged for a closer look

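In 40 groups of 4 libraries (the 9 genes and the ratio of Lyz2 to Lyz1 in 4 groups), 6 values lay far from the other 3 of their group by Dixon's criterion, where chance gives about 1 in 20 groups. In MCAO+AS-exos libraries, F13a1 had 233.6 FPKM in replicate 3, against 152.6 to 162.6 in the others. Thbs1 had 453.1 FPKM in MCAO+AS-exos replicate 4, against 339.2 to 349.8. The ratio of Lyz2 to Lyz1 was 2.98 in that same library, against 11.4 to 12.9. In MCAO+Ctrl-exos libraries, Ly6c2 had 89.02 FPKM in replicate 1, against 446.0 to 498.0. Plac8 had 92.76 FPKM in Sham replicate 3, against 0.11 to 8.57, and Vcan 0.01 FPKM in Sham replicate 4, against 0 in the others, a difference of 1 unit in the last decimal.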

How the results depend on the processing

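All 9 genes passed the test against Sham in each comparison under every alternative run (8 of 8 with the lysozymes summed), and 777 of 777 alternative values of single genes against Sham kept direction and call. For the 6 genes that met the minimum only through the groups after occlusion a rise was close to set, so these counts are a description. In the main fit 20.7%, 22.1% and 24.5% of all tested genes rose in MCAO+AS-exos, MCAO+Ctrl-exos and MCAO libraries. The median log2 fold change of the 9 genes moved with a pseudocount of 0.1, to 7.965 in MCAO+AS-exos, 8.60 in MCAO+Ctrl-exos and 8.407 in MCAO libraries against Sham, since low Sham values then weigh more. With equal totals, tested genes as a whole had a median difference of -0.27 between MCAO+AS-exos and MCAO libraries, against -0.17 in the main fit. Between MCAO+Ctrl-exos and MCAO libraries that median was -0.31, against -0.14 in the main fit. For MCAO+AS-exos against MCAO, 2 genes passed with equal totals, 2 with no filter, 4 with quality weights, 4 without MCAO+AS-exos replicate 4 and MCAO+Ctrl-exos replicate 1, 0 with length and GC trends removed, 3 with these removed and without MCAO+AS-exos replicate 4, and 0 to 4 when 1 library was left out. For MCAO+AS-exos against MCAO+Ctrl-exos, these were 4 with quality weights, 1 without those 2 libraries, 2 with trends removed and without MCAO+AS-exos replicate 4, and 0 to 2 when 1 library was left out. For MCAO+Ctrl-exos against MCAO, 1 passed without those 2 libraries (Ly6c2, 1.62, adjusted p 0.0351). Signs turned, in genes that did not pass, for Vcan (-0.15 with equal totals, -0.45 to 0.33 when 1 library was left out) and Lyz1 (-0.080 with quantile normalization) between MCAO+Ctrl-exos and MCAO; for F13a1 (0.11 with trends removed, 0.16 also without MCAO+AS-exos replicate 4, -0.19 to 0.082 when 1 library was left out), Ly6c2 (-0.0048 to 0.70) and Lyz1 (-0.12 to 0.012) between MCAO+AS-exos and MCAO; and for Fn1 (0.12 with trends removed, 0.074 also without MCAO+AS-exos replicate 4) between MCAO+AS-exos and MCAO+Ctrl-exos. The log2 ratio of Lyz2 to Lyz1 differed between MCAO+AS-exos and Sham by -0.23, and by 0.28 without MCAO+AS-exos replicate 4. Apart from the cases where fewer libraries or trends were the change made, the cause was not tested.

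Over all tested genes, 666 passed between MCAO+AS-exos and MCAO, 318 with quantile normalization, 3955 with quality weights, 429 with only the 8 libraries, 2145 without those 2 libraries, 317 with trends removed, 1320 with these removed and without MCAO+AS-exos replicate 4, and 0 to 2024 when 1 library was left out. Between MCAO+AS-exos and MCAO+Ctrl-exos 31 passed, 16 without trend, 88 with quantile normalization, 93 with a minimum of 5 FPKM, 3266 with quality weights, 15 with only the 8 libraries, 1089 without those 2 libraries, 68 with trends removed, 1033 with these removed and without MCAO+AS-exos replicate 4, and 1 to 1296 when 1 library was left out. Between MCAO+Ctrl-exos and MCAO 8 passed, and 2 to 167 under the alternatives. Replicate numbers did not pair the libraries: residuals of same-numbered libraries correlated at -0.148 to 0.0923. With the replicate number as a block, 9 genes passed in each comparison with Sham, and 1, 0 and 0 for MCAO+AS-exos against MCAO, MCAO+AS-exos against MCAO+Ctrl-exos and MCAO+Ctrl-exos against MCAO; over all genes these were 460, 68 and 5. Depth is unknown, so the number of fragments behind values below 1 FPKM is not known either.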

Other observations

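The ratio of Chil3 to Fn1, a short and a long transcript, was 32.5, 31.6, 39.1 and 3.79 in MCAO+AS-exos libraries, 4.76 to 8.17 in MCAO+Ctrl-exos libraries and 3.77 to 8.26 in MCAO libraries.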
